A study of Mus musculus with 12 samples.

Results

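The comparison of Con A + hWJ-MSCs with control asked what was still changed in the liver of a mouse that had received concanavalin A and then human Wharton's jelly mesenchymal stromal cells, and what stood at the level of the control liver. It took in 8 of the 12 mice of the series, the 4 labelled Con A + MSCs and the 4 labelled Ctrl, and every one of the 11289 genes of the table. The other 4 mice, labelled Con A and called Con A + PBS here, entered the same fit and their values are given for reference. Con A, short for concanavalin A, is a jack bean protein that binds sugars on cells. It makes T cells and macrophages release cytokines and so gives mice an immune hepatitis. The hWJ-MSCs are stromal cells grown from the human umbilical cord.

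All 12 mice were C57BL/6J, and the labels give an age of 8 to 10 weeks. Con A was injected once into the tail vein at 15 mg/kg, and PBS or 2000000 cells in PBS followed intravenously after 30 min. Livers were taken after 24 h, and polyadenylated RNA of the whole tissue was sequenced. The labels do not say what the control mice received, and the same protocol text stands on all samples. The methods of the study give a younger age range and fewer cells than the labels. They describe the animals as male, whereas the labels give no sex and Xist, the RNA that coats the inactive X chromosome of females, was listed at 10956 to 17660 in the control livers and at 16342 to 29687 in the Con A + hWJ-MSCs livers. The Y-linked gene Kdm5d, which has a near relative on the X chromosome, was listed at 202 to 244 and 238 to 306 in the same livers. With 1 liver piece per mouse, n = 4 mice per group throughout, and in whole tissue fewer cells of a type and less RNA per cell cannot be told apart.

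The deposited values are whole numbers that the authors had already normalised, so that the 12 columns have nearly the same distribution and totals between 17649654 and 17657159. A level is therefore a place within a liver, the sequencing depth is unknown, and a change shared by all genes would not be visible. The scale is coarse at its upper end, where 10 genes in each mouse share the largest value, 341028, and the next value below lies 1.2 log2 units lower. The hepatocyte product Alb (albumin) was at the largest value in all 12 mice, so that its level could not be compared. A gene was called changed at a Benjamini-Hochberg adjusted p below 0.05 in limma and a fold change above 1.5 on log2(value + 1), and was taken to be at control level where the whole 95% interval of its difference lay within 1.5-fold of control. Every gene of the table reaches 64 in at least 2 mice, so a gene near 0 in control is there only through livers in which it was high. Likewise, a gene near 0 in all treated livers is there only through the control livers. On control values alone 10566 genes would be in the table, of which 1162 were called higher (11%) and 1470 lower (13.9%). This count keeps genes that are there only through control. Groups with less than 80% of their analysed genes in it are described by the genes that are in it.

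The liver is a secretory and metabolic organ whose hepatocytes make plasma proteins, bile acids and urea, store and release glucose, and clear drugs and hormones through cytochrome P450 and conjugating enzymes. In acute inflammation, interleukin 6 and interleukin 1 turn hepatocyte output to acute phase proteins, and interferons induce antiviral effectors, guanylate-binding proteins and antigen presentation. Resident macrophages (Kupffer cells), sinusoidal endothelial cells and stellate cells share the tissue with incoming leukocytes.

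At 24 h the livers of the Con A + hWJ-MSCs mice differed from control in 3015 genes, 26.7% of those tested. Of these, 1539 were higher (13.6%) and 1476 lower (13.1%). A further 4120 genes (36.5%) were within 1.5-fold of control, and 4154 (36.8%) could not be assigned to either class with 4 mice per group. Among the called genes, 2672 (23.7% of those tested) had no overlap between the 4 and 4 values. The median difference was 0.97 log2 units among the higher genes and -1.05 among the lower genes, and 239 genes in each direction had moved by more than 4-fold. The Con A + PBS livers, set against the same 4 control livers, had 4379 genes called (38.8%), 2206 higher (19.5%) and 2173 lower (19.2%). Tested directly against Con A + PBS, the Con A + hWJ-MSCs livers had 474 genes higher (4.2%) and 495 lower (4.38%).

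**Figure D1:**
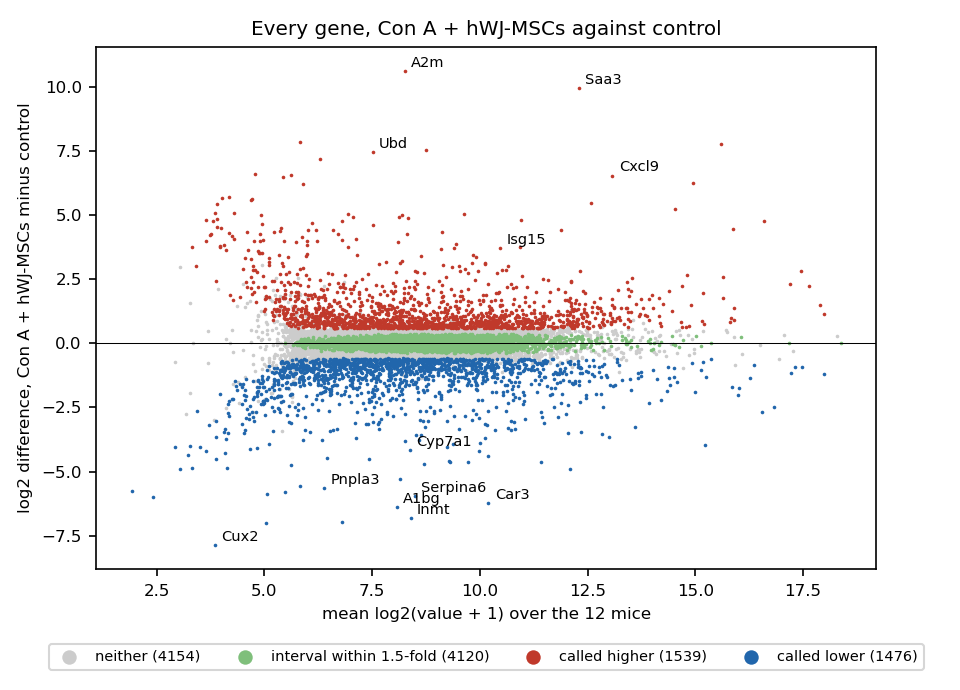
Each point is 1 of the 11289 genes, with its mean log2(value + 1) over the 12 mice on the x axis and the log2 difference of Con A + hWJ-MSCs minus control on the y axis. The 1539 genes called higher are red, the 1476 called lower blue, the 4120 with an interval within 1.5-fold green and the other 4154 grey. A2m and Saa3 are the highest points, and Cux2 is among the lowest.

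The gene groups did not stand at the same distance from control. Most interferon-stimulated and acute phase genes were higher, more genes of drug and amino acid metabolism and of lipogenesis were lower than higher, and few genes of the respiratory chain and the mitochondrial ribosome were called in either direction.

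**Figure D2:**
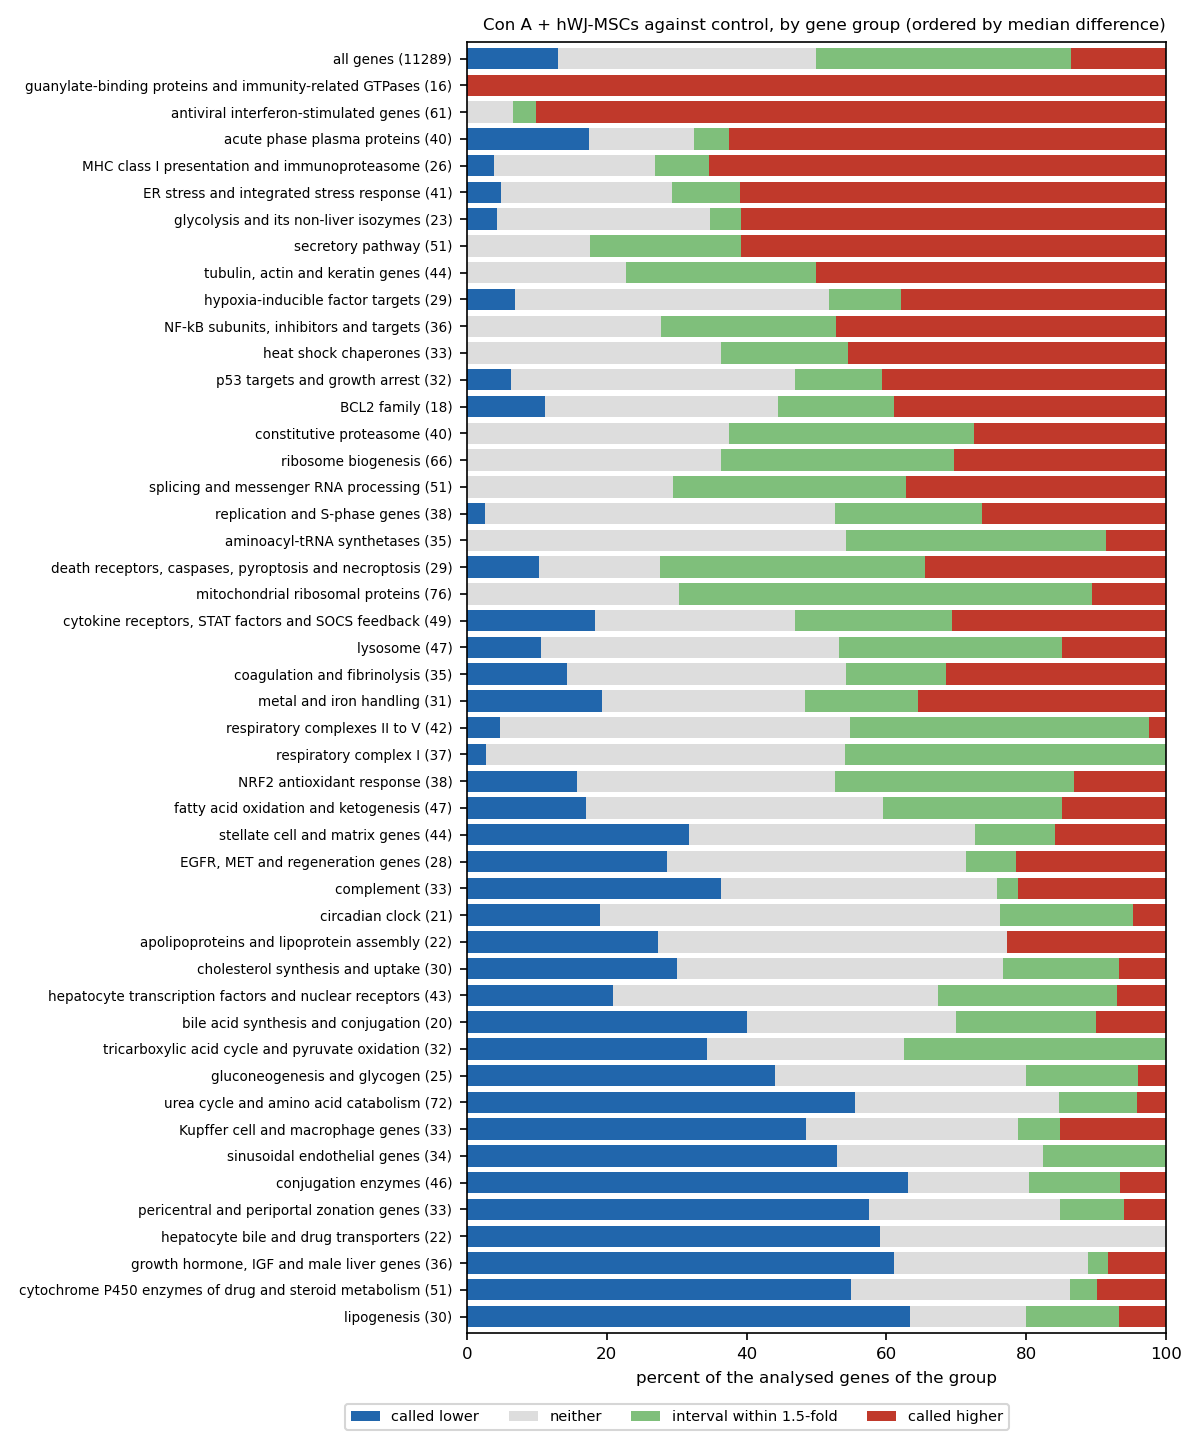
Bars give, for each gene group with at least 16 analysed genes, of which at least 80% would be in the table on control values alone, and apart from the female-biased genes, the percent of genes called lower (blue), called higher (red), within 1.5-fold of control (green) or neither (grey) in Con A + hWJ-MSCs against control. The number of analysed genes is in parentheses, groups are ordered by their median difference, and the top bar holds all genes.

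The 8 largest increases included acute phase and interferon gamma-induced genes. A2m, the protease trap alpha-2-macroglobulin (chromosome 6, 121636173 to 121679237 in mm10, as for all positions below), was listed at 3, 0, 0 and 8 in control livers and at 1696, 1818, 8535 and 8908 in Con A + hWJ-MSCs livers. Its log2 difference was 10.64 ± 0.74 (SE, n = 4 against 4; limma adjusted p = 1.06e-06). Saa3, an inducible serum amyloid A of macrophages and hepatocytes (chromosome 7, 46711998 to 46715676), was at 49, 52, 58 and 35 in control and at 58110, 58110, 58110 and 29668 after Con A and cells, a log2 difference of 9.98 ± 0.38 (adjusted p = 9.44e-09). The groups of both genes were far apart.

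Ubd, a ubiquitin-like modifier induced by interferon gamma and tumour necrosis factor, was at 4 to 7 in control and at 2444, 1607, 824 and 524 after Con A and cells (log2 difference 7.48 ± 0.57, adjusted p = 1.8e-06). Ptgs2, the inducible cyclooxygenase, was listed at 0 in all 4 control livers and at 119, 73, 114 and 92 in Con A + hWJ-MSCs livers. Saa2 reached the largest value of the scale in all 4 Con A + hWJ-MSCs livers from 678 to 2304 in control, and because it is nearly identical to Saa1 the division of reads between them is uncertain. The gene models 3930402G23Rik (0 or 1 in control, 226 to 476 after Con A and cells) and Gm10309 (0 to 6 against 141 to 845) were also among the largest increases.

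**Figure D3:**
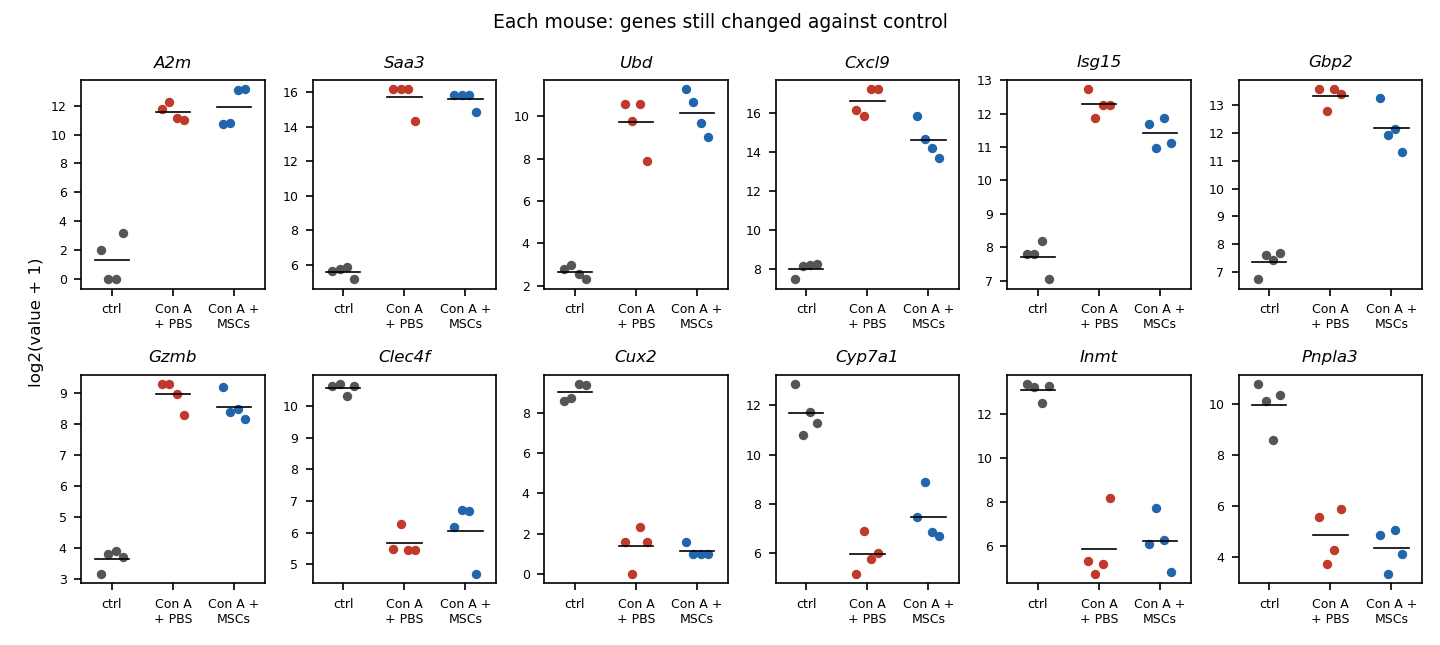
Each panel plots log2(value + 1) of 1 gene in every mouse, with control in grey, Con A + PBS in red and Con A + hWJ-MSCs in blue, and a line at the mean of the 4 mice. The y axes differ between panels. In all 12 panels the blue points lie clear of the grey points, above them in the first 7 and below them in the last 5.

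Acute phase plasma proteins were mostly still raised. Of 40 analysed genes 25 were higher (62.5%, against 13.6% of all genes), 7 lower (17.5%, against 13.1%) and 2 within 1.5-fold, with a median difference of 1.15 log2 units against 0.041 over all genes, and 15 of the 40 reached the largest value of the scale in at least 1 mouse. Hp, the haemoglobin-binding haptoglobin, was at the largest value in every Con A + hWJ-MSCs liver and at 29649 to 72700 in control. In the metal and iron group, 11 of 31 genes were higher (35.5%) and 6 lower (19.4%). Hamp2, a relative of the iron hormone hepcidin, was at 20917, 5256, 2362 and 3452 in control and at 234, 224, 232 and 196 after Con A and cells, a log2 difference of -4.62 ± 0.64 (limma adjusted p = 0.00017). Complement genes were divided, with 7 of 33 higher (21.2%, against 13.6% of all genes) and 12 lower (36.4%, against 13.1%). Fcna, the lectin pathway recognition protein ficolin A, was at 496 to 724 in control and at 74, 68, 82 and 46 after Con A and cells (log2 difference -3.12 ± 0.19, adjusted p = 4.96e-07), and C6 of the membrane attack complex was 1.91 log2 units below control (-1.91 ± 0.36, adjusted p = 0.00145). Coagulation and fibrinolysis genes had 11 of 35 higher (31.4%, against 13.6% of all genes, but 5 of the 29 that would be in the table on control values alone), 5 lower (14.3%, against 13.1%) and 5 within 1.5-fold (14.3%, against 36.5%).

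Nearly all interferon-induced genes were above control. Of 61 antiviral interferon-stimulated genes, 55 were higher, 0 were lower and 2 were within 1.5-fold, where 13.6% of all genes were higher, and the median difference was 1.45 log2 units. All 16 guanylate-binding proteins and immunity-related GTPases, large GTPases that act on pathogen vacuoles, were higher, with a median of 2. In Con A + PBS against the same control mice the medians were 1.77 and 2.96. The direct comparison with Con A + PBS called 19 of the 61 antiviral genes and 5 of the 16 GTPases lower after cells, where 4.38% of all genes were, and none higher.

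Isg15, a ubiquitin-like antiviral modifier (chromosome 4, 156199424 to 156200818), was at 220, 223, 291 and 131 in control, at 3322, 2004, 3751 and 2204 in Con A + hWJ-MSCs and at 6764, 3751, 4938 and 4938 in Con A + PBS. It was 3.70 ± 0.27 log2 units above control (limma adjusted p = 1.25e-06) and 0.87 below Con A + PBS (-0.87 ± 0.27, adjusted p = 0.0488), where 1 liver of each group had the same value. Ifi44, another antiviral gene, was at 278 to 310 in control and at 4465, 2942, 5256 and 3596 after Con A and cells. Gbp2 (chromosome 3, 142620602 to 142638008), a guanylate-binding protein, was at 105, 191, 169 and 205 in control, at 9867, 3862, 4562 and 2580 in Con A + hWJ-MSCs and at 12219, 7132, 12219 and 10956 in Con A + PBS. It stood 4.82 ± 0.35 log2 units above control (adjusted p = 1.3e-06), with no overlap between these groups. Tgtp1, an immunity-related GTPase whose near copies may share reads, was at 184 to 878 against 8006 to 9922. Slfn5 of the Schlafen family was the exception among the genes named, with 78, 82, 86 and 97 in control, 250, 154, 222 and 143 in Con A + PBS and 110, 89, 57 and 93 in Con A + hWJ-MSCs, an interval of -0.49 to 0.47 log2 units around control.

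The promoters of these genes are shown because interferons act through short DNA elements near the start site. Type I interferon acts through the interferon-stimulated response element (searched on both strands as TTTC, any 2 bases and TTTC again) and interferon gamma through the gamma-activated site (TTC, any 3 bases and GAA, which reads the same on both strands). Among the RefSeq windows of 250 bases before to 50 after the start site on GRCm38.p6, 943 of 27025 (3.49%) held the first motif and 2288 (8.47%) the second. By symbol, 8490 of the 11289 analysed genes had a window. Capitals mark the matches, and the sequences run 5′ to 3′ along the gene.
Isg15, chr4:156200769-156201068, minus strand: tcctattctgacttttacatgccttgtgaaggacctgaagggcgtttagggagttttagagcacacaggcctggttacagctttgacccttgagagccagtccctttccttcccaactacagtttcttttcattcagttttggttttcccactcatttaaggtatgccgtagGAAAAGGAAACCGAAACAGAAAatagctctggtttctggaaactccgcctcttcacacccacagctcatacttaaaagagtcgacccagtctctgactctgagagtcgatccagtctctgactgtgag
Gbp2, chr3:142620413-142620712, plus strand: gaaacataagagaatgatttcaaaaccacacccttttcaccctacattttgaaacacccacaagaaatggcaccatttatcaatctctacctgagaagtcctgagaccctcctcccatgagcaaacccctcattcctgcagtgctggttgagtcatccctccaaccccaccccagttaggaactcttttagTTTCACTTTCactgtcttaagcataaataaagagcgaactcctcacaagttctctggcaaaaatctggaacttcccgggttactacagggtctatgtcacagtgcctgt
Tgtp1, chr11:48992197-48992496, minus strand: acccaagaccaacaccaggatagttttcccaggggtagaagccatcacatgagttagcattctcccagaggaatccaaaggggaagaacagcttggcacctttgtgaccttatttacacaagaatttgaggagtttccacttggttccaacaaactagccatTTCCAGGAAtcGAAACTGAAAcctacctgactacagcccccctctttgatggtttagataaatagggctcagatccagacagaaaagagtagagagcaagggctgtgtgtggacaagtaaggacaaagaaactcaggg
The Isg15 window held 3 overlapping matches of the response element, which begin 78, 72 and 66 bases before the start site, and no gamma-activated site. The Gbp2 window held 1 response element 59 bases before the start. The Tgtp1 window held 1 response element at 77 bases and 1 gamma-activated site at 88 bases. The Ifi44 window held neither run of letters. A match is a run of letters and says nothing of binding in these livers.

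Most class I presentation genes were higher, and few class II genes were called. In the class I group, which includes the immunoproteasome and the peptide-loading complex, 17 of 26 genes were higher (65.4%, against 13.6% of all genes) and 1 lower. Pdia3, a thiol oxidoreductase of peptide loading, was at 8535 to 11601 in control and at 34385 to 58152 after Con A and cells, and the class I gene H2-Q1, one of a family of near-identical genes whose reads may be shared, was lower (230 to 616 against 78 to 119). The invariant class I chain B2m was within 1.5-fold of control in the 12-mouse fit, at 29578 in each control liver and at 44248, 34238, 34238 and 34238 after Con A and cells. All treated values were above all control values there, and it left that class in 9 of the 12 fits with 1 mouse left out. Of 21 class II genes listed, 13 are in the table, of which 1 was called higher (7.7%, against 13.6% of all genes), 0 lower, and 4 within 1.5-fold (30.8%, against 36.5%). Of 41 chemokine and receptor genes listed, 19 are in the table. On control values alone 11 would be, of which 5 were higher and 2 lower. Cxcl9, the interferon gamma-induced chemokine that attracts T cells (chromosome 5, 92321331 to 92328079), was at 181, 292, 294 and 310 in control, at 58152, 25819, 18931 and 13230 in Con A + hWJ-MSCs and at 72750, 58152, 147850 and 147850 in Con A + PBS. It was 6.55 ± 0.42 log2 units above control (limma adjusted p = 7.13e-07) and 1.99 log2 units below Con A + PBS (-1.99 ± 0.42, adjusted p = 0.0235), where 1 liver of each treated group had the same value. Ccl7, a monocyte chemokine in the table only through the treated livers, was at 0 to 12 in control and at 173, 65, 105 and 56 after Con A and cells.

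The NF-κB group had 17 of 36 genes higher (47.2%, against 13.6% of all genes), none lower and 9 within 1.5-fold, and 11 higher among the 29 that would be in the table on control values alone. Nos2, the inducible nitric oxide synthase, was at 0, 0, 6 and 0 in control, at 92, 22, 76 and 46 in Con A + hWJ-MSCs and at 441, 211, 198 and 550 in Con A + PBS. It was above control (adjusted p = 0.000119 in limma) and below Con A + PBS, with no overlap among the 3 groups. Rela, the transactivating subunit of NF-κB, was within 1.5-fold of control (723 to 914 against 773 to 1040). Of 27 immediate early and AP-1 genes in the table, 18 would be there on control values alone, and of these 2 were higher and 2 lower, near the shares of all genes. Atf3, a stress-induced repressor, was at 18 to 37 in control and at 300, 64, 302 and 82 after Con A and cells, and Ier3 was at 12 to 22 against 152, 44, 92 and 167. In both, mouse 2 of the Con A + hWJ-MSCs group had the lowest value of the 4. Neither Atf3 nor Ier3 is among those 18. Like Nos2, they were below 64 in every control liver and are in the table only through the treated livers.

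Of 32 neutrophil and monocyte genes listed 28 are in the table, and 14 would be there on control values alone. Of those 14, 10 were higher and 1 lower (11% and 13.9% of all such genes). The direct comparison of the 2 treated groups called none of the 28. The neutrophil granule gene Ngp was at 0, 0, 0 and 3 in control and at 62, 40, 67 and 123 after Con A and cells. The summed level of the 4 neutrophil markers in the table was 16 to 56 in control and 695 to 1456 after Con A and cells, and that of the 4 monocyte markers 301 to 382 and 1173 to 2019. Of the 8, the neutrophil markers S100a8, S100a9, Retnlg and Ngp and the monocyte marker Ly6c2 were at 0 to 28 in every control liver and so are in the table only through the treated livers, while Ccr2, Plac8 and Chil3 were called higher from 47 or more in control. Lactoferrin (Ltf) was listed at 0 in every control liver and at 31, 28, 49 and 74. Of 41 T, NK and cytotoxic cell genes listed, 16 are in the table. On control values alone 7 would be, of which 4 were higher and 1 lower. Gzmb, the granzyme that cytotoxic cells deliver to their targets, was at 8, 13, 14 and 12 in control and at 590, 334, 357 and 290 after Con A and cells (log2 difference 4.92 ± 0.26, limma adjusted p = 1.61e-07), against 627, 625, 504 and 316 in Con A + PBS. Cd28, the T cell costimulatory receptor, was at 0 to 8 against 60 to 177. The 5 T cell markers and 4 B cell markers chosen for the cell type check are not among the analysed genes, so the lymphocyte genes could not be set beside them.

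Kupffer cell markers were lower, and sinusoidal and stellate markers were divided. Of 33 Kupffer cell and macrophage genes 16 were lower (48.5%, against 13.1% of all genes) and 5 higher (15.2%, near the 13.6% of all genes). Clec4f, a lectin specific to Kupffer cells, was at 1598, 1646, 1282 and 1578 in control and at 71, 104, 101 and 25 after Con A and cells (log2 difference -4.51 ± 0.37, limma adjusted p = 2.98e-06). The summed level of the 5 Kupffer cell markers, Clec4f, Vsig4, Timd4, Cd5l and Marco, was 2910 to 4734 in control and 156 to 653 after Con A and cells, and 4 of the 5 were called lower. Gpnmb, a gene of phagocytic macrophages, was higher (0 or 1 in control, 42 to 92 after Con A and cells), and the scavenger receptor Msr1 was within 1.5-fold of control. Of 34 sinusoidal endothelial genes 18 were lower (52.9%) and none higher. Clec4g, a sinusoidal lectin, was at 812, 608, 503 and 493 in control and at 18, 47, 20 and 12 after Con A and cells (log2 difference -4.73 ± 0.45, adjusted p = 1.06e-05), and the endothelial phosphatase Ptprb was at 700 to 984 against 52 to 177. The hyaluronan receptor Stab2 was within 1.5-fold of control (714 to 978 against 681 to 761), while it was at 412 to 508 in Con A + PBS. The summed sinusoidal markers were at 2394 to 3420 in control and 1411 to 1773 after Con A and cells, with 2 of 5 called lower, Stab2 within 1.5-fold, and Stab1 and Lyve1 in neither class. The summed stellate markers overlapped, at 3862 to 6616 and 3416 to 4358, with Lrat and Reln called lower, Dcn within 1.5-fold, and Des and Rgs5 in neither class. Stellate cell and matrix genes had 7 of 44 higher (15.9%), near the share of all genes, and 14 lower (31.8%). Of the 40 that would be in the table on control values alone, 4 were higher. Timp1, the inhibitor of matrix metalloproteinases, was at 2, 0, 4 and 6 in control and at 233, 272, 272 and 191 after Con A and cells, Ngfr of stellate cells was at 45 to 98 against 1 to 10, and the laminin gene Lamc1 was within 1.5-fold of control. Of 18 adhesion and activated endothelium genes in the table, 13 would be there on control values alone, and of these 5 were higher and 1 was lower. The adhesion receptor Itgb1 was within 1.5-fold of control.

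Most hepatocyte metabolic groups were below control. Of the 5 hepatocyte markers, Alb was at the largest value and Cps1 at 147960 in all 8 livers, Apoa1 was called lower, and Ttr and Serpina1a were neither called nor within 1.5-fold. Their summed level was 767349 to 1022192 in control and 640410 to 678777 after Con A and cells. These markers lie in the coarse part of the scale, and the part of a changed cell composition in the differences below was not tested. Of 51 cytochrome P450 genes 28 were lower, 5 higher and 2 within 1.5-fold, where 13.1% of all genes were lower, with a median of -1.40 log2 units against -1.99 in Con A + PBS. Conjugation enzymes had 29 of 46 lower, bile and drug transporters 13 of 22 with none higher, urea cycle and amino acid catabolism 40 of 72, and zonation genes 19 of 33. Bile acid synthesis and conjugation had 8 of 20 lower (40%), 2 higher (10%, against 13.6% of all genes) and 4 within 1.5-fold. Its median was -0.43 log2 units. Cyp7a1, the rate-limiting enzyme of bile acid synthesis (chromosome 4, 6265612 to 6275631), was at 7356, 1768, 3406 and 2503 in control, at 175, 479, 116 and 104 in Con A + hWJ-MSCs and at 35, 119, 54 and 64 in Con A + PBS. It was 4.18 log2 units below control (-4.18 ± 0.53, limma adjusted p = 8.13e-05), and its difference from Con A + PBS was 1.52 ± 0.53 (adjusted p = 0.0683). Cyp8b1, the enzyme that sets the cholic acid share, was at 605, 2020, 340 and 62 after Con A and cells against 2572 to 4732 in control (-3.03 ± 1.06, adjusted p = 0.0372). That call was lost in 7 of the 12 fits with 1 mouse left out, and mouse 2 was the nearest to control. Amacr of bile acid side-chain processing was within 1.5-fold of control.

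Among the xenobiotic genes, Cyp1a2, a pericentral drug-metabolising enzyme, was at 10944, 9400, 6748 and 8898 in control and at 350, 590, 431 and 342 after Con A and cells (log2 difference -4.40 ± 0.31, limma adjusted p = 1.15e-06), and at 278 to 832 in Con A + PBS. The methyltransferase Inmt (chromosome 6, 55170626 to 55175043) was at 10336, 9389, 5730 and 9848 in control and at 68, 210, 77 and 28 after Con A and cells (-6.83 ± 0.69, adjusted p = 1.75e-05). Car3, a carbonic anhydrase abundant in hepatocytes, fell from 16342 to 20890 in control to 221, 1808, 146 and 76. The organic anion transporter Slc22a7 was at 779 to 1220 against 24, 82, 26 and 2, and Slco1a1 at 840 to 4466 against 180 to 568. Gstm3 of the glutathione transferases was lower (500 to 1176 against 37 to 153), whereas Gsta1 was higher (44, 44, 1 and 36 against 612, 202, 461 and 87). Cyp2a12 and the thiopurine methyltransferase Tpmt were within 1.5-fold of control. Cyp2a12 was at 9922 to 11024 in control, 9480 to 11024 in Con A + hWJ-MSCs and 10414 to 13327 in Con A + PBS.

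For amino acids, Glul, the pericentral glutamine synthetase, was at 7966, 10972, 12230 and 12230 in control and at 1629, 3273, 1629 and 1558 after Con A and cells (log2 difference -2.48 ± 0.22, limma adjusted p = 6.55e-06). Afmid of tryptophan breakdown was at 1472 to 2792 against 434, 1146, 326 and 106, and Bckdhb of branched-chain oxidation was within 1.5-fold. Rgn, a calcium-binding lactonase counted with the zonation genes, was at 58210 or 72783 in control and at 3701, 13253, 7356 and 2004. Of 25 genes of gluconeogenesis and glycogen 11 were lower (44%, against 13.1% of all genes) and 1 higher (4%, against 13.6%). G6pc, the glucose-6-phosphatase that releases glucose, was at 3476 to 6715 against 820, 1470, 778 and 1359, and the liver pyruvate kinase gene Pklr at 2107 to 5925 against 839 to 1337. Pyruvate carboxylase (Pcx) was within 1.5-fold of control, at 6134 to 11525 in control, 8856 to 10298 in Con A + hWJ-MSCs and 13131 to 18853 in Con A + PBS.

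Most lipogenesis genes were below control. Of 30 genes 19 were lower (63.3%, against 13.1% of all genes), 2 higher and 4 within 1.5-fold, with a median of -1.53 log2 units, and the median in Con A + PBS against the same mice was -1.08. The direct comparison of the treated groups called 1 of the 30 lower and none higher, so the medians were not told apart gene by gene. Pnpla3, a lipid droplet acyltransferase and lipase, was at 1766, 1132, 386 and 1330 in control and at 28, 9, 32 and 16 after Con A and cells (-5.65 ± 0.57, limma adjusted p = 1.75e-05). Fasn, Scd1 and Srebf1 were named after their values were seen. Fasn, the fatty acid synthase, was at 25781, 18894, 15057 and 44442 in control and at 2138, 2392, 2119 and 2009 after Con A and cells (-3.47 ± 0.26, adjusted p = 1.6e-06). Srebf1, the transcription factor that drives lipogenesis, was at 5899, 6305, 5376 and 7330 against 1137, 1244, 1596 and 962 (-2.35 ± 0.16, adjusted p = 8.56e-07). The stearoyl desaturase gene Scd1 was at the largest value of the scale in 3 of the 4 control livers and at 17650, 5910, 13937 and 20871 after Con A and cells, so that the groups of all 3 genes were separate. The lipid droplet gene Cidec was higher (4 to 12 against 406, 76, 155 and 520), and the acyltransferase Agpat2 was within 1.5-fold. Cholesterol genes had 9 of 30 lower (30%) and 2 higher (6.7%), with Insig1, the sterol sensor partner, at 7571 to 13131 against 2275 to 4166, Sc5d of sterol synthesis at 8577 to 10414 against 2990 to 3936, and Soat2 of sterol esterification within 1.5-fold. Fatty acid oxidation and ketogenesis had 8 of 47 lower (17%), 7 higher (14.9%) and 12 within 1.5-fold, near the 13.1% and 13.6% of all genes, and a median of -0.08. Acaa1b, a peroxisomal thiolase, was at 8514 to 15057 against 1298 to 2074 and the peroxisomal thioesterase Acot3 at 582 to 907 against 72 to 168. The medium-chain acyl-CoA synthetase Acsm3 was within 1.5-fold, a class it left in 9 of the 12 fits with 1 mouse left out. Apolipoprotein and lipoprotein assembly genes were divided, with 5 of 22 higher (22.7%), 6 lower (27.3%) and 0 within 1.5-fold. Of these, Apoe and Apoa2, close to the top of the scale, were lower, with 341028 in every control liver for Apoe and 58038, 72682, 58038 and 58038 after Con A and cells.

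**Figure D4:**
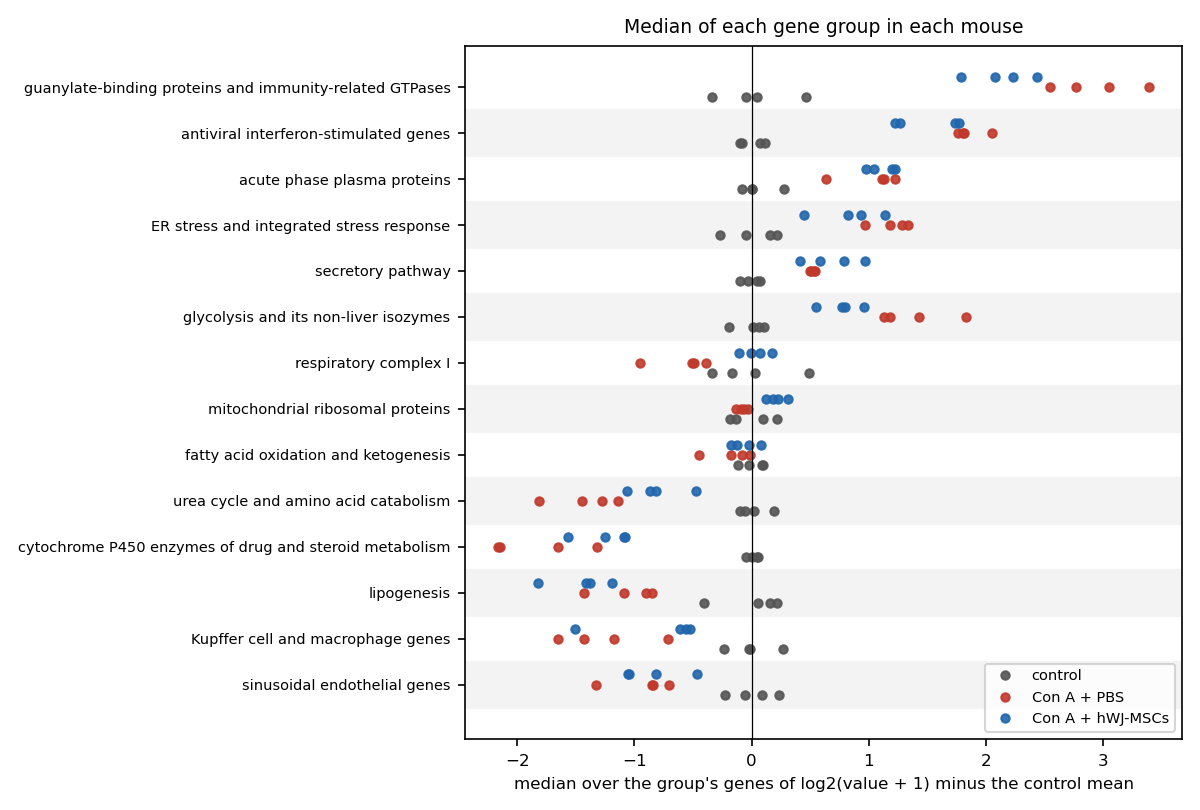
Each point is 1 mouse and gives the median, over the analysed genes of a gene group, of log2(value + 1) minus the mean of the 4 control mice, with control in grey, Con A + PBS in red and Con A + hWJ-MSCs in blue. Respiratory complex I lies at -0.11 to 0.175 in the blue mice and at -0.334 to 0.489 in the grey mice. Mitochondrial ribosomal proteins lie at 0.125 to 0.308 in the blue mice and at -0.132 to -0.028 in the red mice. The interferon and P450 groups do not reach the grey points in any blue mouse.

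The 4 Con A + hWJ-MSCs livers were not equally far from control. In the P450 group the median of the single mice was -1.57 to -1.08, in the antiviral group 1.23 to 1.77 and in the urea and amino acid group -1.07 to -0.47. Of the 22 groups whose fitted median was past 1.5-fold, mouse 2 was the nearest to control in 15 and the farthest in none, a description of these 4 livers with no test.

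Genes tied to sex and growth hormone were among the largest decreases. Cux2, a repressor that is highly expressed in female liver (chromosome 5, 121858387 to 122049851), was at 382, 428, 681 and 654 in control and at 2, 1, 1 and 1 after Con A and cells (log2 difference -7.88 ± 0.57, limma adjusted p = 1.3e-06), and at 0 to 4 in Con A + PBS. A1bg, a plasma immunoglobulin-like protein, was at 2184, 2421, 16364 and 1362 in control and at 62, 24, 26 and 58 (-6.37 ± 0.64, adjusted p = 1.75e-05). In the group of growth hormone, IGF and male liver genes, which includes Cux2, 22 of 36 were lower (61.1%, against 13.1% of all genes) and 3 higher (8.3%, against 13.6%), and Mup1 of the major urinary proteins, whose near-identical copies share reads, was at 286 to 1003 against 12 to 70. A group of 25 genes known as female-biased in mouse liver was put together after the values of Cux2, A1bg and Cyp2c69 had been seen and serves as a description only. Of these, 19 were lower (76%), 2 higher (8%) and 1 within 1.5-fold after Con A and cells, and 19 were lower in Con A + PBS. Hao2, a peroxisomal hydroxyacid oxidase, was at 1032, 550, 651 and 456 against 12, 18, 14 and 4, and the prolactin receptor Prlr at 7624 to 9876 against 891 to 1540. The male-biased P450 gene Cyp4a12a, likewise named after the fact, was at 7, 10, 18 and 20 against 69, 197, 64 and 70 (log2 difference 2.71 ± 0.53, adjusted p = 0.00161). Serpina6, the corticosteroid-binding globulin of plasma, was at 4310 to 5783 against 67, 134, 84 and 44 (-5.96 ± 0.47, adjusted p = 2.33e-06). Chrna4, a nicotinic receptor subunit, was at 1680, 906, 110 and 766 against 4, 2, 3 and 7. The gene model Gm13775 was at 186 to 1326 against 0 to 16, and Lsamp, a neural adhesion gene, was at 52 to 68 in control and listed at 0 in every Con A + hWJ-MSCs liver. Cux2, Hao2, Gm13775 and Lsamp were below 64 in every liver of both treated groups, so they are in the table only through the control livers.

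Few respiratory chain genes were called. Of 37 respiratory complex I genes 17 (45.9%, against 36.5% of all genes) were within 1.5-fold, 1 was lower, none higher and 19 could not be assigned, with a median of 0.05 log2 units. The control livers spread more widely, with medians of single mice at -0.334 to 0.489 against -0.11 to 0.175 after Con A and cells. Control mouse 1 was the highest. Against the same control mice, Con A + PBS had 19 of the 37 lower, where 19.2% of all genes were, and a median of -0.67. The direct comparison called 9 of the 37 higher after cells, where 4.2% of all genes were, and none lower. Ndufb4, an accessory subunit, was within 1.5-fold of control in the 12-mouse fit but left that class in 8 of the 12 fits with 1 mouse left out and in the fit with no variance trend. It was at 1736, 904, 1192 and 814 in control, 681, 808, 670 and 450 in Con A + PBS and 1108, 1336, 1254 and 983 in Con A + hWJ-MSCs (interval of the difference from control -0.44 to 0.57). The exception, Ndufs8, was 0.66 log2 units lower (-0.66 ± 0.14, limma adjusted p = 0.00293), a call lost without control mouse 1 or without Con A + hWJ-MSCs mouse 4. In complexes II to V 18 of 42 (42.9%) were within 1.5-fold, 2 lower and 1 higher. Sdhc, the membrane anchor of succinate dehydrogenase, was at 3186, 2173, 2515 and 2190 in control, 1336, 1529, 1419 and 1381 in Con A + PBS and 2030, 2190, 2432 and 2112 in Con A + hWJ-MSCs (-0.18, interval -0.46 to 0.09). Its partner Sdhb stayed lower (2415 to 3970 against 1252 to 1724), and cytochrome c (Cycs) was higher (1352 to 1832 against 2459 to 3030). Mitochondrial ribosomal proteins had 45 of 76 genes (59.2%) within 1.5-fold, 8 higher and none lower. Con A + PBS had 2 of the 76 higher and 4 lower, where 19.5% and 19.2% of all genes were. Its median was -0.095 log2 units, against 0.22 after Con A and cells. Mrpl49 was within 1.5-fold and Mrpl17 higher (670 to 940 against 1201 to 1660). In the tricarboxylic acid cycle and pyruvate oxidation group, 12 of 32 were within 1.5-fold (37.5%, near the 36.5% of all genes) and 11 lower (34.4%, against 13.1%), among them the pyruvate dehydrogenase kinase gene Pdk1 (1302 to 2484 against 548 to 701) and the phosphatase gene Pdp2 (248 to 478 against 74 to 152).

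Glycolysis stayed above control, with 14 of 23 genes higher (60.9%, against 13.6% of all genes) and 1 lower (4.3%, against 13.1%) and a median of 0.73 log2 units, against 1.47 in Con A + PBS. Pkm, the non-liver pyruvate kinase, was at 279, 409, 263 and 330 in control, 3744, 1988, 2822 and 2078 in Con A + hWJ-MSCs and 5246, 4830, 4036 and 6528 in Con A + PBS. It was 3.02 ± 0.22 log2 units above control (limma adjusted p = 1.24e-06), and all 3 groups were separate. The lactate exporter Slc16a3 was at 6 to 9 in control and at 214, 68, 165 and 106 after Con A and cells, and enolase 1 (Eno1) was within 1.5-fold, a class it left in 7 of the 12 fits with 1 mouse left out. Hypoxia-inducible factor targets had 11 of 29 higher (37.9%) and 2 lower (6.9%). Of the 25 that would be in the table on control values alone, 8 were higher.

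Several groups of protein handling and stress genes had more members higher than the 13.6% of all genes. ER stress and integrated stress response genes had 25 of 41 higher and 2 lower. Of the 34 that would be in the table on control values alone, 19 were higher. The serine synthesis gene Psat1 was at 0 to 24 against 152, 58, 104 and 170. Phgdh was at 4 to 14 against 60 to 94, and neither gene is among the 34. Sestrin 2 (Sesn2) was within 1.5-fold of control. The secretory pathway had 31 of 51 genes higher (60.8%), none lower and 11 within 1.5-fold, with a median of 0.66 log2 units, and Con A + PBS had 20 higher and a median of 0.50 against the same mice, with none of the 51 called in the direct comparison. Sec61g, a subunit of the translocation channel, was at 847, 574, 748 and 310 in control and 1978, 1628, 2502 and 2554 after Con A and cells, Rpn1 of the glycosylation complex was at 2152 to 2846 against 5357 to 9344, and the vesicle coat GTPase Sar1b was within 1.5-fold. Heat shock chaperones had 15 of 33 higher and none lower. The inducible Hspa1a was at 6 to 32 against 73 to 118 and Hspa1b at 148 to 343 against 528 to 958, 2 near-identical genes whose reads may be shared. The constitutive Hspa8 was within 1.5-fold, at 13961 to 18948 in control, 13961 to 16364 in Con A + hWJ-MSCs and 23652 to 29712 in Con A + PBS. The NRF2 antioxidant group had 5 of 38 higher (13.2%), 6 lower (15.8%) and 13 within 1.5-fold (34.2%), near the 13.6%, 13.1% and 36.5% of all genes. The glutathione peroxidase Gpx3 was higher (114 to 164 against 547 to 616), malic enzyme 1 (Me1) lower (2612 to 13948 against 1648 to 2341), and the peroxiredoxin Prdx4 within 1.5-fold, at 2269 to 2942 in control, 1132 to 1362 in Con A + PBS and 2421 to 3201 in Con A + hWJ-MSCs. The p53 and growth arrest group had 13 of 32 higher and 2 lower, with the cell cycle inhibitor Cdkn1a at 252 to 590 against 1402 to 2072. Ribosome biogenesis had 20 of 66 higher and 22 within 1.5-fold, with Npm1 of the nucleolus at 2584 to 3168 against 6764 to 13253, Gar1 at 24 to 40 against 60 to 86, and Utp20 within 1.5-fold. Splicing genes had 19 of 51 higher and 17 within 1.5-fold, with Hnrnpa2b1 at 7626 to 7966 against 23652 to 44696, Snrpg at 14 to 58 against 88 to 110, and the helicase Dhx15 within 1.5-fold. Cytoskeletal genes had 22 of 44 higher and 12 within 1.5-fold, with the actin-binding Tmsb10 at 148 to 306 against 924 to 2896, Coro1a at 109 to 167 against 409 to 604, and filamin A (Flna) within 1.5-fold. Replication genes had 10 of 38 higher (26.3%), 5 of the 31 that would be in the table on control values alone, and 1 lower, and the constitutive proteasome had 11 of 40 higher (27.5%) and none lower. Aminoacyl-tRNA synthetases had 3 of 35 higher (8.6%), below the 13.6% of all genes.

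The genes at control level that differed most in Con A + PBS were chosen by that difference, so it is given as a description. On the side that was high in Con A + PBS they were Ccnd2, Slfn5, Ptbp3, Itgb3, Rhob and Mex3d. Ccnd2, a cyclin of the start of the cell cycle, was at 84, 122, 82 and 116 in control, 245, 224, 211 and 202 in Con A + PBS and 102, 82, 76 and 116 in Con A + hWJ-MSCs, with an interval against control of -0.47 to 0.27 log2 units. Ptbp3, an RNA-binding splicing regulator, was at 1291, 1950, 1488 and 1992 in control, 3922, 2870, 3452 and 3866 in Con A + PBS and 1844, 1720, 1797 and 1810 after cells. The platelet and endothelial integrin gene Itgb3 was at 68 to 124 in control and 67 to 96 after cells, the small GTPase gene Rhob at 494 to 664 and 570 to 764, and the RNA-binding Mex3d at 40 to 50 and 45 to 60. On the side that was low in Con A + PBS they were Hpgd, 1110032A03Rik, Acsm3, Tmem205, Rdh5 and Sat2. Hpgd, which inactivates prostaglandins, was at 2870, 3232, 2942 and 2830 in control, 1142, 1844, 1508 and 816 in Con A + PBS and 3232, 3091, 3091 and 2014 after cells. Tmem205, a membrane protein gene, was at 3701 to 5256 in control and 3366 to 4466 after cells, 1110032A03Rik at 311 to 582 and 352 to 458, Acsm3 at 1260 to 1592 and 1192 to 1519, the retinol dehydrogenase gene Rdh5 at 346 to 584 and 284 to 506, and the acetyltransferase gene Sat2 at 128 to 190 and 130 to 202. In each of the 12 the treated and control values overlapped. Of the 12, Ptbp3 and Itgb3 alone were within 1.5-fold in every fit with 1 mouse left out.

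**Figure D5:**
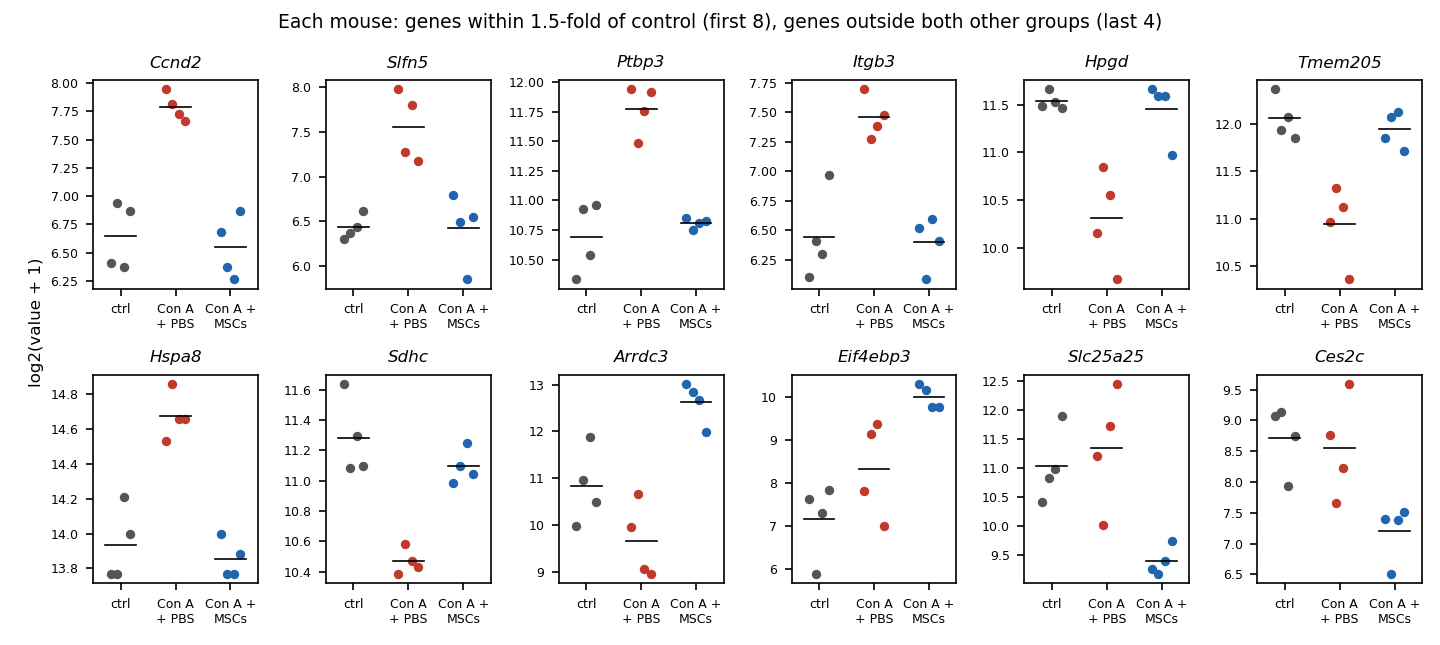
Each panel plots log2(value + 1) of 1 gene in every mouse, with control in grey, Con A + PBS in red, Con A + hWJ-MSCs in blue and a line at the mean of the 4 mice. In the first 8 panels the blue points share the range of the grey points, and in the last 4 (Arrdc3, Eif4ebp3, Slc25a25 and Ces2c) they lie beyond both other groups. The y axes differ between panels.

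A small set of genes lay beyond both other groups, with all 4 Con A + hWJ-MSCs values above or below all 8 other values and a call in both comparisons: 21 genes were higher (0.186%) and 34 lower (0.301%). Arrdc3, an arrestin-like regulator of receptor signalling (chromosome 13, 80883384 to 80889643), was at 1012, 1992, 3750 and 1444 in control, 1000, 1609, 531 and 496 in Con A + PBS and 8246, 7354, 6544 and 4043 in Con A + hWJ-MSCs. It was 1.80 ± 0.43 log2 units above control (limma adjusted p = 0.00549) and 2.97 ± 0.43 above Con A + PBS (adjusted p = 0.0149). Eif4ebp3, a translation inhibitor that binds the cap-binding factor, was at 58 to 228 in control, 126 to 658 in Con A + PBS and 1258, 1154, 864 and 864 after cells. The gene model BC048546 (174 to 286 in control, 582 to 960 after cells) and the calmodulin-binding gene Pcp4l1 (154 to 264 against 368 to 602) were also above. Hpx, the haem carrier hemopexin, was at 57910 or 72606 in control, at 147377 in each Con A + PBS liver and at the largest value in each Con A + hWJ-MSCs liver, which is a single step of the scale. On the lower side, Cyp2c69, a P450 gene of the female liver, was at 20917, 11618, 72783 and 18948 in control, 5256, 2556, 3091 and 8544 in Con A + PBS and 1639, 884, 478 and 580 after cells. It was 4.92 log2 units below control (-4.92 ± 0.55, adjusted p = 3.68e-05). Cyp3a44, close to other Cyp3a genes in sequence, was at 2002 to 5393 against 56 to 167. Slc25a25, a mitochondrial ATP and phosphate carrier, was at 1358, 1807, 2023 and 3801 in control, 2358, 1042, 3359 and 5560 in Con A + PBS and 616, 578, 672 and 860 after cells (-1.63 ± 0.43, adjusted p = 0.0094). The carboxylesterase gene Ces2c was at 244 to 562 in control and 90 to 182 after cells, and the progenitor marker Prom1 at 114 to 207 and 37 to 82. Dusp1, a phosphatase of MAP kinases, was at 308 to 859 in control and 192 to 234 after cells (-1.33 ± 0.48, adjusted p = 0.0412), a call lost in 9 of the 12 fits with 1 mouse left out. The set itself depended on single mice: it had 2 genes without Con A + PBS mouse 1, 4 and 3 without Con A + hWJ-MSCs mouse 2 or 3, 22 without Con A + PBS mouse 4 and 34 without Con A + hWJ-MSCs mouse 1, and 93, 88 and 96 without control mouse 1, Con A + PBS mouse 2 or Con A + hWJ-MSCs mouse 4.

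Of 21 circadian clock genes 4 were lower (19%, against 13.1% of all genes), 1 higher (4.8%, against 13.6%) and 4 within 1.5-fold. Nr1d1, the clock repressor REV-ERB alpha, was at 1298, 954, 1238 and 1586 in control, 724, 156, 322 and 1723 in Con A + PBS and 214, 148, 188 and 208 after cells (-2.73 ± 0.54, limma adjusted p = 0.00174). Its paralogue Nr1d2 was at 570 to 941 in control and 130 to 316 after cells (-1.89 ± 0.37, adjusted p = 0.0017). The Con A + hWJ-MSCs values of Nr1d1 were close together, while those of Con A + PBS ran from their range to above that of control. Per2, a clock repressor named after its value was seen, was at 256, 94, 186 and 184 in control and at 586, 325, 394 and 733 after cells (1.51 ± 0.30, adjusted p = 0.00175). The time of day of collection is not in the labels or in the methods used here, and its part in these differences was not tested.

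The size of a difference depends on the constant added before the logarithm where a group is near 0. On log2(value + 10) the differences of A2m, Ubd and Gm10309 became 8.31, 6.22 and 5.01, from 10.64, 7.48 and 7.21, and those of Cux2, Chrna4 and Gm13775 became -5.56, -5.47 and -4.53, from -7.88, -7.00 and -5.88. Those of 3930402G23Rik, Ccl7, Nos2, Ngp, Cd28, Gpnmb and Ngfr became 5.02, 2.79, 2.49, 2.87, 2.82, 2.93 and -2.53, from 7.87, 4.39, 5.02, 5.59, 4.35, 5.64 and -3.99. Ptgs2, Ltf and Lsamp, each listed at 0 in a whole group, have no fold change here. Gzmb, Timp1, Gsta1, Slc22a7, Cidec, Slc16a3, Psat1, Phgdh, Hspa1a, Cyp4a12a and Hao2 also moved toward 0 by more than 1.5-fold. All of these genes remained called.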

How the data were processed

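Polyadenylated RNA of 12 mouse livers, 4 per group, was sequenced as 150 bp read pairs. The submitters' processing notes name Bowtie2 2.2.1, RSEM 1.2.18 and mm10. The deposited values are scores, whole numbers that the authors had normalised in a way not given in the sources used here: 82.1% of ranks hold the same value in all 12 mice, and every gene reaches 64 in at least 2 mice. They are not counts, so no count model was used, and depth per sample and counting error are unknown.

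Values were taken as log2(score + 1) without further normalisation and fitted with limma 3.58.1 (lmFit, eBayes with trend) in R 4.3.3 on the 12 mice, with Benjamini-Hochberg adjustment over 11289 genes. Intervals are 95% intervals of the same fit. Genes outside both other groups were called in the same direction against control and Con A + PBS, with no overlap with either.

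Genes named were the 8 largest non-overlapping changes in each direction, the 2 largest changes and the gene within 1.5-fold with the largest Con A difference in each list described, the 6 such genes in each direction over all genes, and the 5 genes in each direction farthest outside both other groups, plus label, cell type and clock genes and those said to be named after their values were seen. A few genes that the rule names are not reported here. The count of genes that would be in the table on control values alone was added after the data were seen. The members and lists were chosen with earlier results of these data known. The alternatives were another added constant, a filter on low values, other scalings, variance model, thresholds and samples, a replicate block, and leaving out each mouse. All 12 sample columns were used.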

Additional observations from a re-analysis of the deposited data

Results flagged for a closer look

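For the named genes and the median of each gene group, a mouse was marked where its gap to the nearest of the others exceeded the 95% critical value of Dixon's test for a group of 4. This held in 35 of 402 groups (8.71%), and chance marks about 1 in 20. Groups with tied values on this scale are marked by a single step. The test was run in the control and Con A + hWJ-MSCs groups.

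In control, mouse 1 stood apart for Lsamp (52), Cxcl9 (181), Tpmt (588), Bckdhb (1856), Apoa2 (341028), Hnrnpa2b1 (7626) and Dhx15 (804). Control mouse 3 stood apart for Inmt (5730), Car3 (16342), Nos2 (6), Cd28 (0), Clec4f (1282), Gsta1 (1), Acaa1b (8514), Eno1 (4840), Scd1 (44548) and the median of the heat shock chaperones (0.147 log2 units above the control mean). Control mouse 4 stood apart for Ngp (3), Hpx (57910) and Snrpg (14).

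In Con A + hWJ-MSCs, mouse 1 stood apart for Cux2 (2), B2m (44248), Itgb1 (3596) and Pcp4l1 (368). Mouse 2 stood apart for Glul (3273), Apoe (72682), Gar1 (60), Utp20 (204), Ces2c (90) and Cyp4a12a (197). Mouse 4 stood apart for Saa3 (29668), Gm13775 (0), Tpmt (373), Hpgd (2014) and the median of the Kupffer cell and macrophage genes (-1.507 log2 units from the control mean).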

How the results depend on the processing

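The counts of genes called, higher, lower and within 1.5-fold of control stayed within 1.5 times under every alternative run except the higher threshold. With a fold change above 2, 1539 genes were called (733 higher and 806 lower), 7816 were within 2-fold, 2391 were called in Con A + PBS against control, and 15 lay outside both other groups. With an unadjusted p, 85 lay outside both. With 1 mouse left out, 2654 to 3254 genes were called (1362 to 1679 higher and 1292 to 1575 lower), 3510 to 4489 were within 1.5-fold, 4093 to 4575 were called in Con A + PBS against control, and 2 to 96 lay outside both.

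Among 105 named genes called, Cyp8b1, Dusp1, Ndufs8 and Xist lost the call in at least 1 of those fits, and Cycs, Mrpl17, Ndufs8, Sdhb and Xist with a fold change above 2. Xist also lost it with the replicate block. Of 38 named genes within 1.5-fold, 21 left that class in at least 1 fit with 1 mouse left out. B2m and Mex3d also left it in the fit of only the 8 mice compared and with the replicate block. Ndufb4 left it in the fit with no variance trend. No named gene that was called reversed.

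Replicate numbers did not pair the mice: deviations of same-numbered mice correlated at 0.052, -0.118, 0.009 and 0.112. With the number as a replicate block, 3080 genes were called (1566 higher and 1514 lower), 4173 were within 1.5-fold, 4429 were called in Con A + PBS against control, and 65 lay outside both. DESeq2 was not run because the values are not counts. Depth is unknown, so the counting error of low values could not be stated.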
